A study of Mus musculus with 3 samples.

Results

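Hmgcs1, Idi1, Fdps, Fdft1, Sqle, Lss, Sc5d and Insig1 are 8 of the 19050 genes counted in 3 single-cell RNA libraries of mouse mammary epithelium. The first 7 encode enzymes of cholesterol synthesis, and Insig1 encodes an endoplasmic reticulum protein that holds that synthesis in check. They were taken by symbol, all 8 were found in each library, and they had been chosen by their measured levels, because the libraries differed in them in basal cells. None of the 8 is itself an uptake gene, and the receptors and lysosomal proteins of uptake are given as a list of their own. The libraries formed a single untreated group, with no second genotype, treatment or time. Each was labelled as FVB/NJ, females 10 weeks old, with the number 4 mammary glands of 4 mice pooled. Whether the 3 libraries came from 1 pool or from separate pools was not given in the sources used here, so the spread between libraries may be technical.

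The tissue had been digested with collagenase and trypsin, and live epithelial cells were sorted on CD49f and EpCAM with CD31, CD45 and Ter119 in the same stain. Cells were assigned to 3 classes by unique molecular identifier (UMI) counts, each UMI standing for 1 captured RNA molecule. Basal cells, the contractile outer layer of the duct, were taken by Krt5, Krt14 and Acta2. Luminal progenitors, from which milk-producing cells arise, were taken by Csn3, Elf5, Kit and Aldh1a3. Hormone-responsive luminal cells were taken by Prlr, Areg, Pgr and Esr1. A cell joined a class when that sum reached 5 UMIs and was at least 3 times each of the others. This gave 9763 basal cells (1494, 4338 and 3931 in libraries 1, 2 and 3), 7952 luminal progenitors (3099, 1639 and 3214) and 2530 hormone-responsive cells (344, 978 and 1208), while 4107 of 24352 cells had no class. Levels below are CPM, the UMIs of a gene per 1000000 UMIs of 1 class in 1 library.

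The classes held their labels by markers that the assignment had not used. 6 further basal markers summed to between 5404 and 5866 CPM in basal cells and to between 126 and 224 CPM in luminal progenitors. 4 further luminal progenitor markers summed to 1475, 3700 and 3036 CPM in that class and to between 46.0 and 104 CPM in the others. 5 further hormone-responsive markers, Foxa1 among them, summed to 2652, 2697 and 3164 CPM in that class and to between 35.1 and 133 CPM in the others. Foxa1, a transcription factor of hormone-responsive cells, stood between 421 and 450 CPM in that class and between 4.17 and 5.95 CPM in basal cells. Library 1 stood apart from the others before any of the 8 genes is considered. Its basal cells held 18210 CPM of 8 heat shock genes together, against 4793 CPM in library 2 and 4240 CPM in library 3. Its immediate-early genes were at least 2-fold lower in 10 of 11 cases in luminal progenitors, where 6.10% of all genes of at least 2 CPM were. Libraries held 18584156, 27220670 and 30984706 UMIs over all barcodes, and class sums ranged from 1248867 to 11795218 UMIs. Of 26494 distinct cell barcodes, 350 occurred in more than 1 library and 1 in all 3.

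Cholesterol is built from acetyl units in the endoplasmic reticulum through mevalonate, isoprenoid pyrophosphates, squalene and lanosterol. When membranes run low in sterol, the SREBP2 protein (gene Srebf2) is carried by SCAP to the Golgi, is cut there, and turns on genes of synthesis and uptake. INSIG1 and INSIG2 retain SCAP when sterol is plentiful, and Insig1 is itself a target of SREBP. In the mammary gland the same pathway supplies membranes and part of the sterol of milk fat.

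Promoter sequence was available for 5 of the 8 genes (Hmgcs1, Idi1, Lss, Sc5d and Insig1) in RefSeq on GRCm38.p6. The 250 bases before each start were searched on both strands for 5 motifs. These were the loose sterol regulatory element TCACNCCAC, its strict form (which has C for N and an A in front, and so lies within the loose matches), the SREBP E-box TCACGTGA, the NF-Y box CCAAT and the Sp1 box GGGCGG. The windows of 3 genes follow, up to the first annotated transcript base. Hmgcs1 is shown as the only one with the loose sterol element. Insig1 and Lss are shown as a gene that was high, and one that was not, in library 1 basal cells. Capitals mark the motifs, which read ATTGG and CCGCCC where they lie on the other strand.
Hmgcs1, chr13:119690101-119690350, + strand: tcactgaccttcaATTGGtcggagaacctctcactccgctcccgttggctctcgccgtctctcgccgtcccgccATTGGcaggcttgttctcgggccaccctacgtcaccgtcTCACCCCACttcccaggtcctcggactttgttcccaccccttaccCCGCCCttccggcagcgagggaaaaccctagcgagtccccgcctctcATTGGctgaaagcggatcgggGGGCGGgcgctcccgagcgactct
Insig1, chr5:28071162-28071362, + strand: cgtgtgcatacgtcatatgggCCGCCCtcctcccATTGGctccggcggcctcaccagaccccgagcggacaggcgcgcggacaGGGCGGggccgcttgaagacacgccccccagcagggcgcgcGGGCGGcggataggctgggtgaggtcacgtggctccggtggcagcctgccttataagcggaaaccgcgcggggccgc
Lss, chr10:76531355-76531587, + strand: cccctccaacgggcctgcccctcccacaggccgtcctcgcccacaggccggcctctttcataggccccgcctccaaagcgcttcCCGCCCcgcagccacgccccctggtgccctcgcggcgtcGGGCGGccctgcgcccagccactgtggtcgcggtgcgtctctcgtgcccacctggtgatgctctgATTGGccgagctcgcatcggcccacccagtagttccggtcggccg
The loose sterol element lay 137 bases before the Hmgcs1 start and in none of the other 4 windows, and 1.05% of 32851 mouse promoters held it. The strict form and the E-box were in none of the 5, against 0.0731% and 0.785% of all promoters. CCAAT and GGGCGG were each in 5 of 5, against 33.9% and 32.7% of all promoters. The searched windows end at RefSeq starts, and those of Idi1, Lss and Insig1 ran past the first annotated base of the gene. Insig1 and Lss both carried this pair of motifs, and any bearing of the motifs on levels was not tested. A match is a stretch of letters and not a measured binding site.

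In basal cells, library 1 held the highest level of 7 of the 8 genes. Their summed level was 372 CPM (95% Poisson interval 352 to 393) in library 1, 146 CPM in library 2 and 101 CPM in library 3. Library 1 was thus 2.92-fold (2.72 to 3.13) above the other 2 libraries pooled. This difference is the one for which the genes had been chosen, so it is given without a test, and each library is 1 sample. The intervals cover counting error only. 5 of the 8 were at least 2-fold higher in library 1 basal cells, where 3.75% of 11501 genes of at least 2 CPM were, and 0 were at least 2-fold lower, where 4.79% of genes were.

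**Figure D1:**
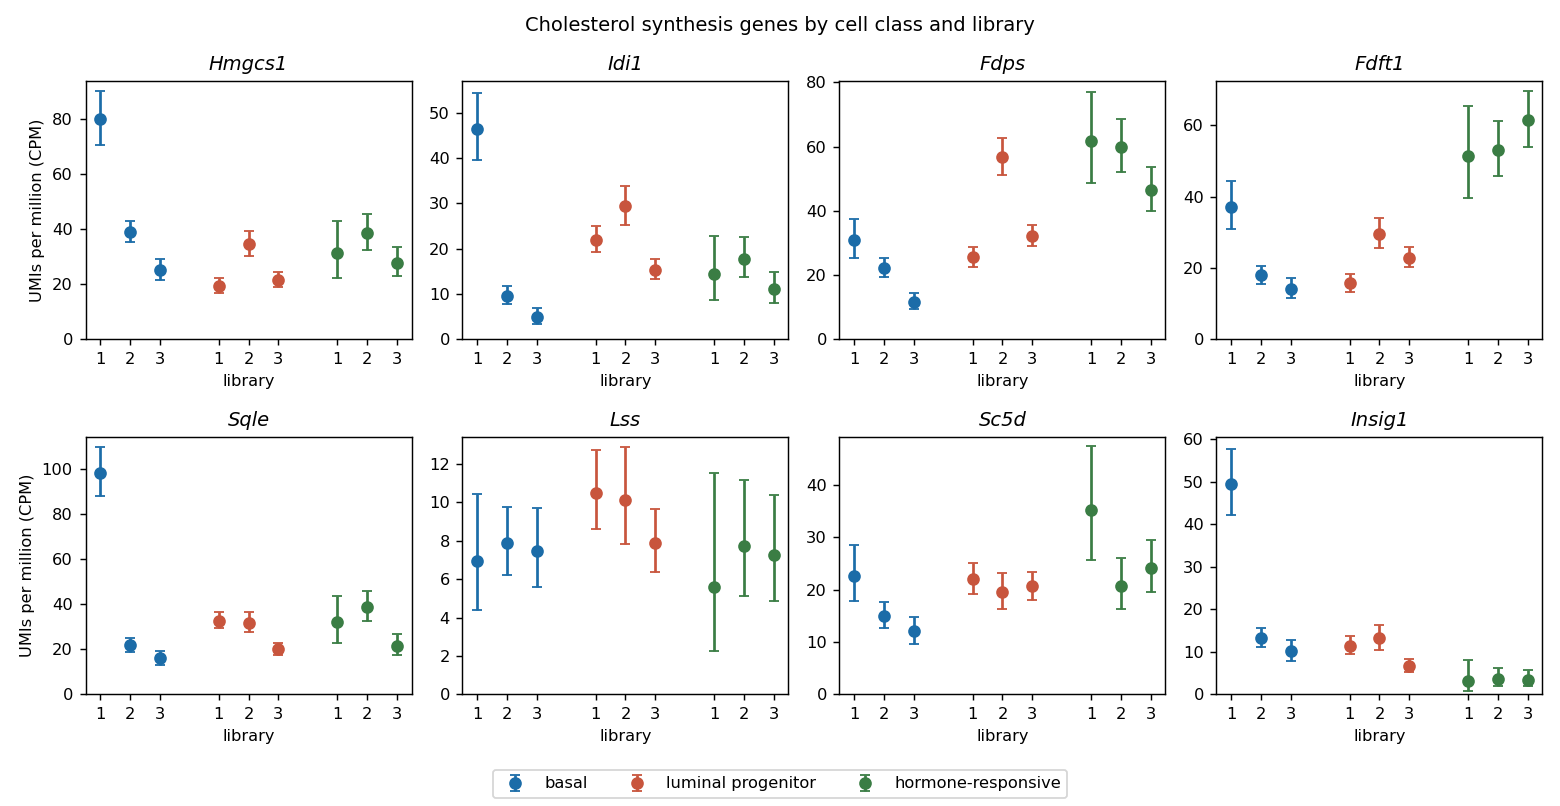
Level of each gene in CPM (y axis from 0, scaled per panel) in libraries 1, 2 and 3 of each cell class (x axis). Points are 1 library each and bars are exact 95% Poisson intervals for counting error. In the basal class, library 1 was highest for every gene but Lss, and Sqle stood at 98.3 CPM there against 21.8 and 16.0 CPM.

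Among the early enzymes, Hmgcs1, which condenses acetyl units ahead of mevalonate, had 79.8, 38.9 and 25.03 CPM in basal cells of libraries 1, 2 and 3. Idi1, which isomerises isopentenyl pyrophosphate, had 46.6, 9.60 and 4.87 CPM. Fdps, which joins these units into farnesyl pyrophosphate, had 30.9, 22.1 and 11.6 CPM. All 3 were highest in library 1 and lowest in library 3, and Idi1 was the most uneven. Against the other libraries pooled, library 1 was 6.11-fold (4.81 to 7.75) higher for Idi1, 2.41-fold (2.08 to 2.79) for Hmgcs1 and 1.74-fold (1.38 to 2.18) for Fdps.

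Downstream, Fdft1, the squalene synthase, had 37.2, 17.9 and 14.1 CPM in basal cells of libraries 1, 2 and 3. Sqle, the squalene epoxidase and a rate-limiting oxygen-dependent step, had 98.3, 21.8 and 16.0 CPM. The fold of library 1 over the others was 5.07 (4.34 to 5.92) for Sqle and 2.29 (1.84 to 2.83) for Fdft1. Lss, which closes the ring to lanosterol, broke the pattern with 6.96, 7.86 and 7.44 CPM, and its fold of 0.905 had an interval (0.555 to 1.42) that included 1. It rested on 23 UMIs in library 1. Sc5d, a late desaturase, had 22.7, 15.0 and 12.04 CPM, a fold of 1.65 (1.25 to 2.14). Insig1, the regulator, had 49.6, 13.2 and 10.2 CPM and a fold of 4.16 (3.37 to 5.13). Just inside the 2-fold mark therefore stood Fdft1 and Hmgcs1, and just outside it Fdps and Sc5d.

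Library 3 was the low one. Its basal cells were at least 2-fold lower than the others pooled for 4 of the 8 (Idi1, Sqle, Insig1 and Fdps), where 1.12% of genes were, and its interval lay below 1 for 7. None was 2-fold higher there (0.643% of genes). In library 2, 0 of the 8 were 2-fold higher and 0 lower, where 0.739% and 1.26% of genes were. Library 2 against library 3 alone was higher by 0.53 on the log2 scale for the summed genes.

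The high level of library 1 did not carry over to the luminal classes, whereas library 3 had the lowest sum in all 3 classes. In luminal progenitors the summed level was 159, 225 and 147 CPM, and library 2 was the high one, at 1.47-fold (1.38 to 1.57) the others. Library 1 was 0.910-fold (0.857 to 0.966) there. In hormone-responsive cells the sums were 235, 240 and 203 CPM, and library 1 was 1.06-fold (0.936 to 1.21) the others, an interval that included 1. Library 3 had an interval below 1 for 6 of the 8 in luminal progenitors and for 4 in hormone-responsive cells. None of the 8 was 2-fold higher or lower in any library in either luminal class. Of all genes of at least 2 CPM in luminal progenitors, 5.63%, 1.68% and 2.50% were 2-fold higher in libraries 1, 2 and 3, and 6.10%, 2.57% and 3.65% were 2-fold lower. In hormone-responsive cells 5.15%, 1.60% and 1.37% were higher and 7.35%, 1.75% and 2.23% lower. The difference between classes in the library 1 ratio was not tested.

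**Figure D2:**
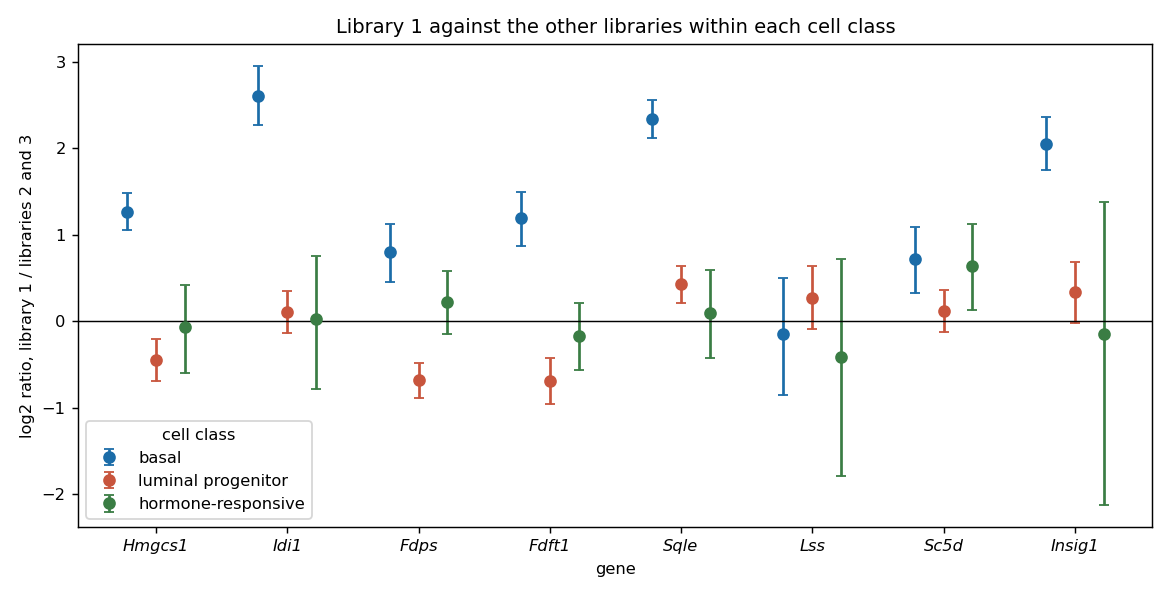
Log2 ratio of library 1 to libraries 2 and 3 pooled (y axis) for each gene (x axis), in basal, luminal progenitor and hormone-responsive cells. Bars are exact 95% binomial intervals for counting error; in basal cells 7 of 8 intervals lie above 0, from Idi1 at 2.61 to Sc5d at 0.72.

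Single genes moved apart in luminal progenitors. Fdps had 25.5, 56.6 and 32.2 CPM there, and Hmgcs1 had 19.2, 34.5 and 21.5 CPM. Both were highest in library 2. Idi1 likewise had 21.99, 29.3 and 15.4 CPM, whereas Sqle stood at 32.7, 31.8 and 20.2 CPM, with libraries 1 and 2 close to each other. Sc5d varied least, with 21.99, 19.5 and 20.6 CPM. Over the luminal progenitors, 5 of the 8 were highest in library 2, 3 in library 1 and 0 in library 3.

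Other values moved with library 1 in the basal class, and some of them did so in the luminal classes too. 7 of 8 heat shock genes were at least 2-fold higher in it, where 3.75% of all genes of at least 2 CPM were. 4 of 9 glucocorticoid-induced genes (Tsc22d3, Fkbp5, Zbtb16 and Mt2) were too, and the summed level of that list was 16560, 7302 and 9934 CPM. Most of that sum was Mt1 and Mt2, with basal means of 6223 and 3854 CPM over the libraries. Counted genes had to reach 10 CPM in at least 1 library, which in basal cells Fkbp5 and Zbtb16 did in library 1 only. In library 1 luminal progenitors, 4 of 8 heat shock genes were at least 2-fold higher and 0 lower. That list summed to 8379, 4317 and 3730 CPM. Of 9 glucocorticoid-induced genes, Tsc22d3, Fkbp5 and Zbtb16 were higher and 2 lower, where 5.63% and 6.10% of all genes were. In library 1 hormone-responsive cells, 1 of 8 heat shock genes was higher. Tsc22d3 and Zbtb16 were higher and 3 of 9 lower, where 5.15% and 7.35% of all genes were. In basal cells, genes of the integrated and endoplasmic reticulum stress responses summed to 1805, 1112 and 1122 CPM. Of the 7 that reached 10 CPM, 1 (Trib3) was at least 2-fold higher in library 1 and 0 were lower. The adipocyte list of 5 genes summed to 75.6, 10.9 and 16.2 CPM, nearly all of it Fabp4 at 74.1, 9.41 and 14.9 CPM, while Plin1 and Cidec were at 0 in library 1 and Adipoq had 1, 0 and 0 UMIs. The endothelial list summed to 17.5, 5.63 and 6.09 CPM. Mitochondrial genes took a median of 2.83%, 1.77% and 1.96% of UMIs. The part of these in the cholesterol genes was not tested. Basal cells were also split within each library into those with a lower and a higher share of heat shock UMIs. In library 1 the lower-share 747 cells held 347 CPM (319 to 377) of the 8 genes and the higher-share 747 held 396 CPM (367 to 428), while their heat shock levels were 10090 and 26130 CPM. In library 2 these sets held 146 and 147 CPM, and in library 3 they held 96.8 and 106 CPM. The lower-share cells of library 1 were still above the higher-share cells elsewhere in heat shock level, at 6455 and 6071 CPM, so neither set of library 1 matched the other libraries in it.

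More basal cells of library 1 than of the other libraries held UMIs of these genes, and more of them held several of the genes. After thinning each cell to 2000 UMIs, 44.4% (41.0% to 47.9%, Clopper-Pearson) of basal cells in library 1 held at least 1 UMI of the 8 genes, against 24.1% in library 2 and 17.1% in library 3. Without thinning the shares were 45.1%, 26.6% and 17.0%, at median depths of 2066, 2172 and 1721 UMIs. Thinning left out 677, 1764 and 2627 shallower basal cells. Cells with UMIs of at least 3 different genes of the 8 made up 4.04%, 0.389% and 0.00% of thinned basal cells. The last of these is 0 of 1304 cells, which allows a share of up to 0.23%. The tenth of cells with most such UMIs held 42.9%, 51.3% and 61.7% of them, at means of 0.742, 0.289 and 0.186 UMIs per cell. That share depends on the mean, so it does not show in which library the UMIs were spread more evenly. In luminal progenitors the thinned shares were 25.6%, 33.3% and 25.9%, and in hormone-responsive cells they were 31.7%, 35.5% and 32.1%. No class should lack these genes, so no share here gives a background from free RNA. Casein and whey RNA, which basal cells should lack, stood at 23.9, 508 and 351 CPM in basal cells of libraries 1, 2 and 3. Luminal progenitors, its source, held 1006, 25180 and 16570 CPM. The basal level was 2.37%, 2.02% and 2.12% of the progenitor level in the 3 libraries.

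The wider pathway was uneven in the basal cells of library 1. Of 8 other synthesis enzymes that reached 10 CPM in at least 1 library, 4 were at least 2-fold higher and 0 lower. Of all genes that held at least 2 CPM in the pooled libraries, 3.75% were higher and 4.79% lower. Cyp51, which demethylates lanosterol, had 94.3, 29.4 and 20.6 CPM, and Msmo1, the next sterol oxidase, had 50.8, 7.08 and 3.11 CPM. Msmo1 was the most uneven enzyme, at 9.37-fold. Hsd17b7 was 2.01-fold higher. Msmo1 and Hsd17b7 reached 10 CPM in library 1 only, so they entered the count through the library where they were high. Pmvk, the phosphomevalonate kinase, stood at 21.8, 20.8 and 25.6 CPM and did not share the order. On the uptake side the lipoprotein receptor Lrp8 was 3.76-fold higher, whereas Vldlr was 0.497-fold the level of the others. Srebf2 was even, at 61.4, 67.6 and 59.7 CPM, and Srebf1 had 67.7, 89.1 and 80.4 CPM. Fatty acid synthesis genes summed to 320, 426 and 411 CPM. Of the 8 that reached 10 CPM in at least 1 library, 0 were at least 2-fold higher and 2 lower. The lists were drawn up with earlier results of these data known, so the counts are descriptions.

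**Figure D3:**
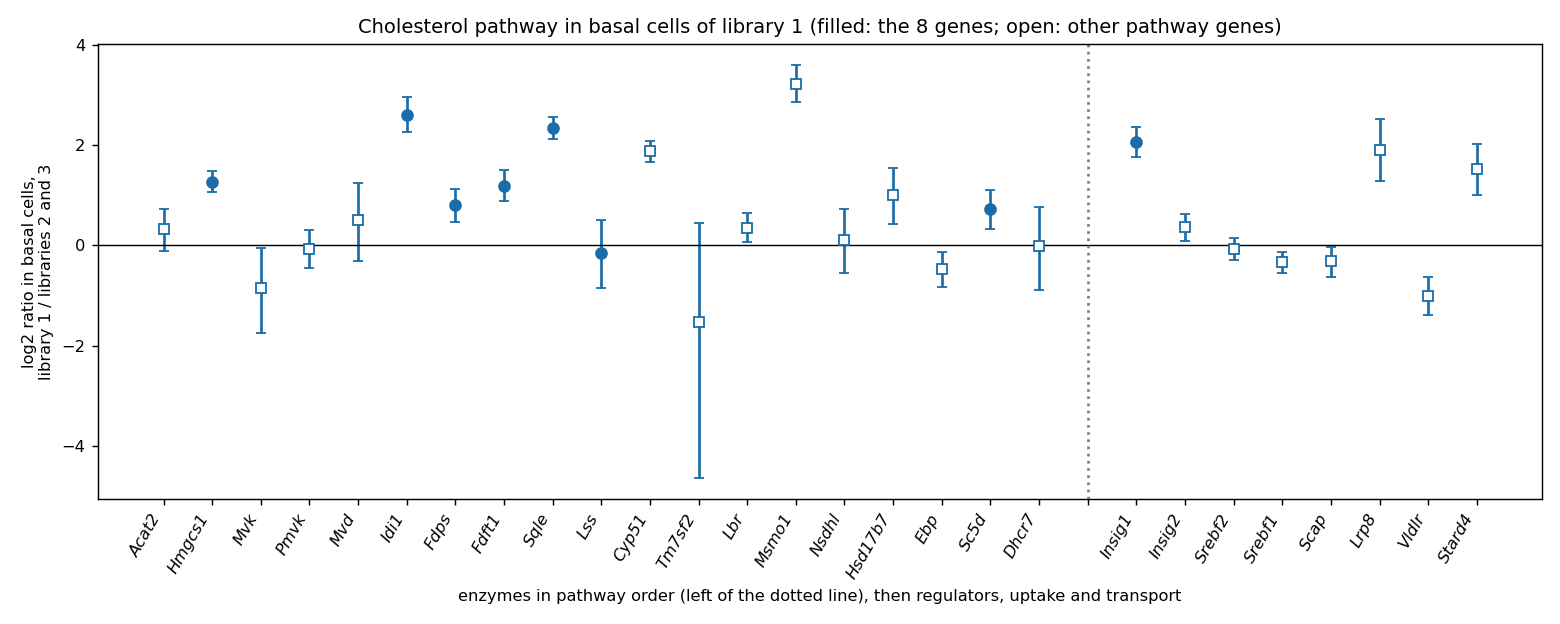
Log2 ratio of basal cells in library 1 to those in libraries 2 and 3 pooled (y axis), with enzymes in pathway order and then regulators, uptake and transport (x axis). Filled circles are the 8 genes, open squares are other pathway genes, and bars are exact 95% binomial intervals for counting error. Msmo1 at 3.23, Idi1 at 2.61 and Sqle at 2.34 are high, and Srebf2 at -0.07 lies near 0.

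Cell classes were then compared over the 3 libraries with edgeR's quasi-likelihood test, the library kept as a block and p-values adjusted by Benjamini-Hochberg over 12643 genes. A gene counted as called at an adjusted p below 0.05. The fold changes were not used to choose the genes, but the basal level of library 1 enters 2 of the 3 comparisons. Hormone-responsive cells held more Fdps, Fdft1 and Sc5d and less Insig1 than basal cells. That is 4 of 8 called, 3 higher and 1 lower, where 57.2% of all genes were called (27.1% higher and 30.0% lower). The share is near the background. The median log2 difference of the 8 was -0.15, against -0.04 over all genes, and so had the opposite sign to most of the called genes.

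Insig1 had 49.6, 13.2 and 10.2 CPM in basal cells and 3.20, 3.59 and 3.49 CPM in hormone-responsive cells of libraries 1, 2 and 3. Every basal library lay above every hormone-responsive one, although the latter rested on 4, 13 and 14 UMIs. The log2 difference was -2.48 ± 1.25 (SD of the within-library ratios, n = 3; edgeR adjusted p = 0.00162). It was called in each of the other settings tried, with adjusted p from 3.41e-06 to 0.00802. Luminal progenitors lay between, at 11.4, 13.2 and 6.70 CPM. Class means were 24.3 ± 21.9 CPM in basal, 10.4 ± 3.36 in luminal progenitor and 3.43 ± 0.201 in hormone-responsive cells (SD, n = 3), and the basal and progenitor values overlapped.

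Fdps had 61.7, 59.9 and 46.4 CPM in hormone-responsive cells against 30.9, 22.1 and 11.6 CPM in basal cells, with no overlap. The log2 difference was 1.33 ± 0.46 (SD, n = 3; edgeR adjusted p = 0.00373), and without library 3 it was 1.01 (adjusted p = 0.0685). Fdft1 had 51.3, 53.0 and 61.4 CPM against 37.2, 17.9 and 14.1 CPM, again with no overlap. Its log2 difference was 1.24 ± 0.81 (SD, n = 3; edgeR adjusted p = 0.0116). Without library 2 it was 1.08 (adjusted p = 0.104) and without library 3 it was 0.79 (adjusted p = 0.191). Sc5d had 35.2, 20.7 and 24.2 CPM against 22.7, 15.0 and 12.04 CPM, so the groups overlapped while each library showed the same direction. The difference was 0.56 ± 0.26 (SD, n = 3; edgeR adjusted p = 0.0285), and it was not called by DESeq2 (adjusted p = 0.0698), without the library block (0.0978), without library 2 (0.106) or without library 3 (0.290).

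Hmgcs1, Idi1, Sqle and Lss did not pass in that comparison. Idi1 and Sqle had log2 differences of -0.10 and -0.26, but their within-library ratios ran in both directions. For Idi1 these were -1.77, 0.72 and 0.98, and for Sqle -1.71, 0.69 and 0.29, with library 1 alone negative. Without library 1 both were called as higher in hormone-responsive cells, Idi1 by 0.86 (adjusted p = 0.00235) and Sqle by 0.53 (adjusted p = 0.0113). Then 5 of 8 were higher and 1 lower, where 63.1% of genes were called. Without library 2 the count was 2 of 8, where 41.2% of all genes were called. Without library 3 it was 1 of 8, where 39.6% were.

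**Figure D4:**
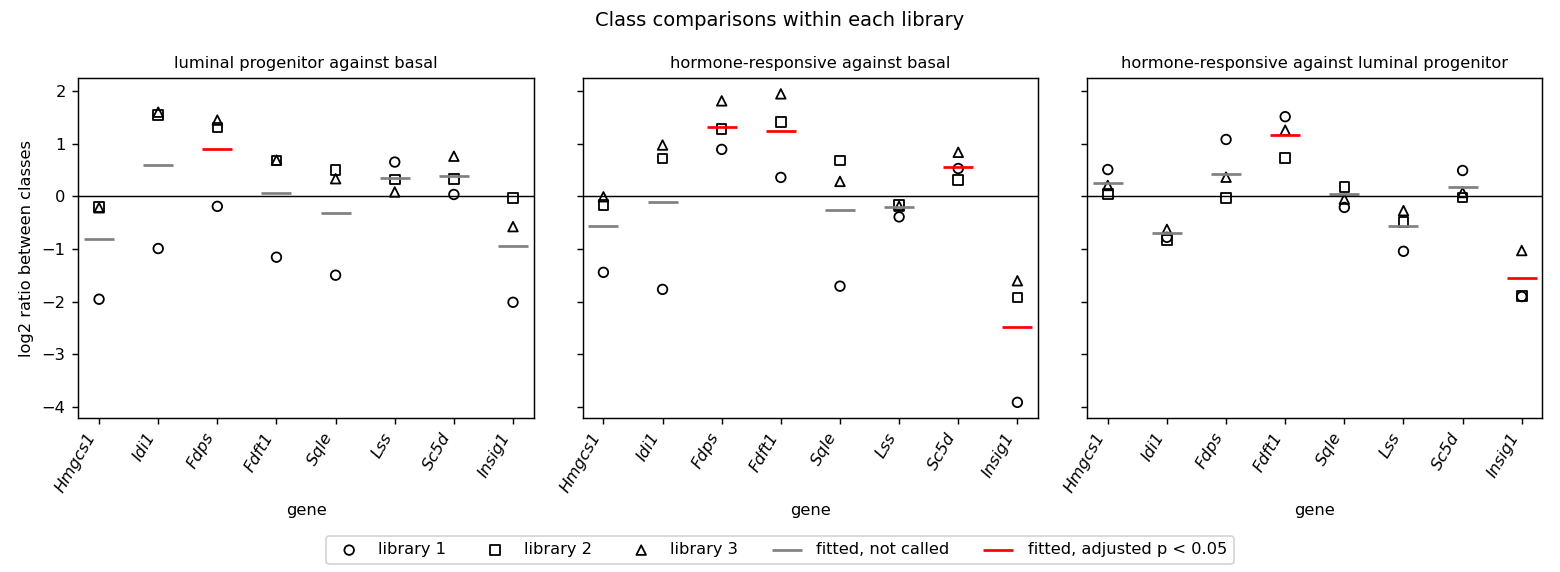
Log2 ratio between classes (y axis) for each gene (x axis) in the 3 comparisons. Symbols are libraries 1, 2 and 3, and horizontal lines are the fitted differences, red where the adjusted p was below 0.05. For Idi1, Sqle and Insig1 the circle of library 1 lies below the other symbols in both comparisons with basal cells.

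Luminal progenitors and basal cells differed in 1 of the 8, where 54.2% of all genes were called (27.5% higher and 26.7% lower). Fdps was higher by 0.90 ± 0.91 on the log2 scale (SD, n = 3; edgeR adjusted p = 0.0234), with ratios of -0.19, 1.31 and 1.45 in libraries 1, 2 and 3. The direction therefore held in 2 of 3 libraries. The call was lost without the library block (adjusted p = 0.0611), with sums thinned to equal totals (0.0857), without library 2 (0.213) and without library 3 (0.283). Insig1 (-0.93, adjusted p = 0.0517) and Hmgcs1 (-0.81, adjusted p = 0.0525) lay lower in luminal progenitors in all 3 libraries but just missed the threshold. Both differences were larger in library 1 than in the others. The within-library ratios were -2.01, -0.03 and -0.57 for Insig1 and -1.95, -0.20 and -0.22 for Hmgcs1. Without library 1 the differences were -0.27 (adjusted p = 0.258) and -0.19 (adjusted p = 0.193). Without library 1, 5 of 8 were called, each higher in luminal progenitors, where 62.7% of all genes were called. Among them Idi1 was higher by 1.62 (adjusted p = 6.24e-06), and Sqle turned from -0.31 to 0.47 (adjusted p = 0.0145). Without library 3, 0 of 8 were called, where 34.3% of all genes were.

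Between the luminal classes, 2 of 8 were called, where 43.1% of all genes were (19.8% higher and 23.3% lower in hormone-responsive cells). Fdft1 was higher in hormone-responsive cells by 1.17 ± 0.40 (SD, n = 3; edgeR adjusted p = 0.0178). All 3 of its hormone-responsive levels lay above the 15.6, 29.5 and 22.8 CPM of luminal progenitors. Insig1 was lower, with a log2 difference of -1.54 ± 0.50 (SD, n = 3; edgeR adjusted p = 0.0298), with no overlap. Neither was called without library 2 (0.0695 and 0.128) or without library 3 (0.111 and 0.0832), and Insig1 not without the library block (0.0563). With a minimum of 2-fold added to the threshold, 31.1% of all genes were called between luminal progenitor and basal cells, 35.6% between hormone-responsive and basal cells and 24.7% between the luminal classes. Of the 8, the numbers were then 0, 3 and 2. Idi1, at -0.69 between the luminal classes, was called only when library 1 was left out (-0.77, adjusted p = 0.00267).

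The remaining genes passed in none of the 3 comparisons over all libraries. Lss averaged 7.42 ± 0.452 CPM in basal, 9.51 ± 1.42 in luminal progenitor and 6.86 ± 1.11 in hormone-responsive cells (SD, n = 3). Each luminal progenitor library lay just above all libraries of the other classes, but the adjusted p was 0.173 against basal and 0.0822 against hormone-responsive cells. Hmgcs1 averaged 47.9 ± 28.5, 25.1 ± 8.27 and 32.4 ± 5.45 CPM in the same order. Sqle averaged 45.4 ± 45.9, 28.2 ± 6.98 and 30.9 ± 8.67 CPM, and its basal SD exceeded its basal mean. Idi1 averaged 20.4 ± 22.8, 22.2 ± 6.99 and 14.3 ± 3.35 CPM. For these 3 genes every pair of classes overlapped.

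Other enzymes of cholesterol synthesis were called about as often as genes at large. Of 16 tested, 7 were higher and 2 lower in hormone-responsive than in basal cells, 6 higher and 3 lower in luminal progenitor than in basal cells, and 3 higher and 4 lower in hormone-responsive cells than in luminal progenitors, where 57.2%, 54.2% and 43.1% of all genes were called. Called counts were 9, 9 and 7 with all libraries. They were 11, 9 and 10 without library 1, where 63.1%, 62.7% and 51.9% of all genes were called. They were 6, 5 and 5 without library 2, against 41.2%, 38.2% and 25.04% of all genes. They were 5, 4 and 3 without library 3, against 39.6%, 34.3% and 22.8% of all genes. The medians with all libraries were 0.52, 0.14 and -0.02, against -0.04, 0.06 and -0.07 over all genes. Msmo1 had 49.6, 48.6 and 24.9 CPM in hormone-responsive cells and 15.4, 13.5 and 7.04 CPM in luminal progenitors, with no overlap. The log2 difference was 1.72 ± 0.11 (SD, n = 3; edgeR adjusted p = 0.0233). Against basal cells it was 1.56 ± 1.61 (SD, n = 3; edgeR adjusted p = 0.0316), higher in 2 of 3 libraries. Without library 1 it was 2.71 (adjusted p = 2.03e-07), and it was not called without library 2 (0.96, adjusted p = 0.286) or library 3 (1.04, adjusted p = 0.242). Between the luminal classes the Msmo1 call was also lost without library 2 (adjusted p = 0.119) and library 3 (0.0923). Dhcr7, a late sterol reductase, was higher in luminal progenitor than in basal cells by 1.93 ± 0.05 (SD, n = 3). Cyp51 was lower than in basal cells in luminal progenitors (-1.40) and in hormone-responsive cells (-2.03). Without library 1 these were -0.66 and -1.33, both still called.

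Among the regulators, Srebf1 and Insig2 differed between classes. Of 13 sensing genes, 5 were higher and 3 lower in luminal progenitor than in basal cells, where 54.2% of all genes were called. The called count was 4 without library 2 and 4 without library 3, where 38.2% and 34.3% of all genes were called. Srebf1, whose protein drives mainly fatty acid synthesis, was higher by 1.31 ± 0.15 (SD, n = 3; edgeR adjusted p = 1.87e-05). Srebf2 did not pass (-0.38, adjusted p = 0.0738). Insig2, the relative of Insig1, was higher in hormone-responsive cells than in luminal progenitors by 1.16 (edgeR adjusted p = 0.00153), opposite in sign to Insig1. Against basal cells it was higher by 0.52, just inside the threshold (adjusted p = 0.0499), and it was not called without library 2 (adjusted p = 0.0596) or library 3 (0.200). Of 9 uptake genes, 3 were higher and 5 lower in luminal progenitor than in basal cells, against the same 54.2%. The called count was 4 without library 2 and 5 without library 3, against 38.2% and 34.3% of all genes. Lipa, the lysosomal lipase that frees cholesterol from its esters, was higher by 3.56, at 330.0, 310 and 360 CPM. Lrp1, a receptor for lipoprotein remnants, was lower (-4.62). Against basal cells, Vldlr was lower in hormone-responsive cells (-4.14).

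Across the 9 class sums, the 9 genes most like the mean of the 8 among 4356 ranked were Cars, Hspd1, Rabggtb, Hspe1, Aars, Eef1e1, Msmo1, Hsp90ab1 and Nop2. Pearson's r ran from 0.918 for Cars to 0.734 for Nop2. The 9 sums share 3 libraries and differ in depth, so r is a description. Msmo1 is the pathway gene among them. Hspd1, Hspe1 and Hsp90ab1 encode chaperones, and Cars and Aars encode the cysteinyl and alanyl tRNA synthetases. Cars stood at 48.7, 20.1 and 17.5 CPM in basal cells of libraries 1, 2 and 3. Within the 8, only Idi1 (0.926) and Sqle (0.835) followed the mean of the other 7 closely. Hmgcs1 (0.48), Fdps (0.40), Sc5d (0.33), Fdft1 (0.27) and Insig1 (0.20) followed it weakly, and Lss (-0.237) did not follow it.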

How the data were processed

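The authors deposited 1 table of UMI counts per library, from 10x Genomics 3' v2 libraries. Per the submitters' processing notes, the tool was Cell Ranger 2.1.0 and the build mm10. The 8 genes and all gene lists were chosen with earlier results of these data known. Named beyond the 8 are up to 4 called genes per list and comparison with the largest change, Srebf1, Srebf2 and the genes most like the 8 by rank. Some genes of these lists are counted but not reported here by name. Hsd17b7, Lrp8, Pmvk, Foxa1 and the stress genes were named after their values were seen.

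Of 26845 barcodes, those with at least 500 genes and under 10% mitochondrial UMIs were kept. The 1968 top doublet scores (Scrublet in scanpy 1.11.5, 0.8% per 1000 barcodes) were removed. Counts were summed per class and library, giving 9 sums. They were fitted with edgeR 4.0.16 in R 4.3.3 (TMM scaling, quasi-likelihood test, library block). The 11 class genes were not tested. The block was used because the 3 classes of a library come from the same cell suspension. With 3 libraries the smallest exact permutation p could not pass 0.05, so only the model across genes was used. The fit was tested on simulated data. Gene and promoter coordinates are GRCm38. Alternatives covered scaling, DESeq2 1.42.0, filters, class thresholds, thinning and leaving out each library.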

Additional observations from a re-analysis of the deposited data

How the results depend on the processing

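The library block pairs the classes of 1 library. Without that block 0 of the 8 genes were called between luminal progenitor and basal cells (1 with it) and 1 between the luminal classes (2 with it), and no other count of calls moved by over 1.5 times. For luminal progenitor against basal, the count of 1 became 0 with a 2-fold minimum, 2 with DESeq2 size factors, 2 with the DESeq2 test, 3 with no filter on low counts, 3 with a class threshold of 5 times, 2 with no doublet removal and 2 with no filter on cells. Leaving out each library gave 0 to 5 there, 1 to 6 for hormone-responsive against basal (4 with all) and 0 to 3 between the luminal classes (2 with all). Over all genes the 3 comparisons, in the same order, called 6852, 7227 and 5446. A 2-fold minimum gave 3928, 4507 and 3122, sums thinned to equal totals gave 4183 for the first and 3522 for the last, and leaving out a library gave 4243 to 8092, 4909 to 8146 and 2826 to 6702. Leaving out a library moved Sqle between -0.71 and 0.47 in luminal progenitors and between -0.83 and 0.53 in hormone-responsive cells against basal cells, and Idi1 between -0.65 and 0.86 in the latter, each reversed to the positive value without library 1. Of the single-gene results under the alternatives, 246 kept direction and side of the threshold, 15 passed it newly, 17 fell short of it and 10 reversed, of which the 3 above were called. The other 7 were small and not called before or after. Fdft1 between luminal progenitor and basal cells (0.08) was -0.00011 with DESeq2 size factors, -0.025 with the DESeq2 test, -0.17 with thinned sums, and ranged from -0.30 to 0.70 without 1 library, negative without library 2 or 3 and called only without library 1. Sqle between the luminal classes (0.05) was -0.018 without the library block and ranged from -0.17 to 0.093 without 1 library, negative without library 2. For the summed 8 genes in basal cells, leaving out a library moved the log2 ratio of library 1 between 1.35 and 1.88 (1.54 with all), that of library 2 between -1.35 and 0.53 (-0.34 with all; 0.53, reversed, without library 1) and that of library 3 between -1.88 and -0.53 (-0.99 with all). The ratio of library 2 was -0.47 with cells thinned to 2000 UMIs, and -0.23 and -0.45 in cells of lower and of higher heat shock share, a split added after seeing the data. The cause of these changes was not tested, except that a fold minimum leaves fewer calls by construction. Depth limits Lss and Insig1 most, with 7 and 4 UMIs in hormone-responsive cells of library 1.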

Other observations

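In a list of genes of cholesterol efflux, storage and carriers, most of the called genes were lower in the luminal classes than in basal cells. The list also holds sterol hydroxylases (Ch25h, Cyp7b1 and Cyp46a1), which were among those called lower. Of 10 tested, 7 were lower and 2 higher in luminal progenitor than in basal cells, where 26.7% of all genes were lower and 27.5% higher. Against basal cells, hormone-responsive cells had 6 lower and 2 higher, where 30.0% of all genes were lower and 27.1% higher. Apoe, a lipoprotein carrier, had 4631, 6352 and 7206 CPM in basal cells of libraries 1, 2 and 3, and 613, 686 and 549 CPM in luminal progenitors. Its log2 difference was -3.23 ± 0.44 (SD, n = 3; edgeR adjusted p = 1.56e-05). Soat1, which esterifies cholesterol for storage, had 19.1, 25.8 and 16.5 CPM in basal cells and 0.491, 0.921 and 1.36 CPM in luminal progenitors. In hormone-responsive cells Soat1 averaged 24.25 ± 13.32 CPM (SD, n = 3) and was not called against basal cells. Abcg1, a sterol exporter, ran the other way, with 21.6, 38.1 and 53.9 CPM in hormone-responsive cells and 1.81, 4.27 and 4.601 CPM in basal cells, a log2 difference of 3.20 ± 0.21 (SD, n = 3; edgeR adjusted p = 3.18e-05).

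Fatty acid synthesis, the companion lipid pathway, followed luminal progenitors. Of 12 genes, 9 were higher and 1 lower there than in basal cells, where 27.5% of all genes were higher and 26.7% lower. In hormone-responsive cells 9 were lower and 1 higher than in luminal progenitors, where 23.3% of all genes were lower and 19.8% higher. Scd1, which desaturates fatty acids, had 101, 251 and 403 CPM in luminal progenitors and 11.8, 27.8 and 35.2 CPM in basal cells (log2 difference 3.30 ± 0.22; SD, n = 3; edgeR adjusted p = 1.72e-07). Thrsp, a lipogenic regulator, was higher by 5.41 and stood at 7.56, 133 and 90.5 CPM in luminal progenitors, with library 1 the low one.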
